A study of Mus musculus with 8 samples.

Results

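Long intergenic noncoding RNA (lincRNA) genes are described here as a class in molar mesenchyme of postnatal day 3 mice. The members are 110 autosomal genes. The deposited table types them as lincRNA, and each reached a normalized value of 3 or more in 4 or more of the 8 libraries. The table lists 20926 genes, of which 875 are lincRNA genes and 860 of these lie on autosomes. The level rule was met by 112 autosomal lincRNA genes, and H19 and Meg3 were left out by name because they belong to imprinted clusters. The members were therefore selected on their measured level, so their presence in this tissue is a description and not a result. The values are reads per gene, scaled between libraries with no correction for gene length.

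The study asked which genes respond to loss of Ezh2 during molar root development. RNA was sequenced from 4 Ezh2fl/fl (control) and 4 Osr2KI-Cre;Ezh2fl/fl samples, all from mice at postnatal day 3 labelled C57BL/6, whereas the methods state a mixed background. The protocol states that epithelial tissue was removed, but epithelial and ameloblast transcripts were present in all 8 libraries, as given below. Both groups carry floxed Ezh2 alleles. Only the mutant carries Cre, knocked in at Osr2, so recombination is limited to cells with Osr2 activity, which in the molar are mesenchymal. An effect of the knock-in allele and an effect of Ezh2 loss cannot be told apart, since no group carries Cre alone. Sex and pooling of animals are not given in the sources used here, so p-values measure the spread between these samples, which may be partly technical.

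LincRNAs are spliced or single-exon transcripts with no long open reading frame, made by RNA polymerase II from their own promoters. They include scaffolds of nuclear bodies, primary transcripts from which small nucleolar RNAs (snoRNAs) or microRNAs are cut, and transcripts that start beside a developmental regulator and are often made in the same cells as it. Ezh2 is the enzyme of Polycomb repressive complex 2 that trimethylates histone H3 at lysine 27, a mark that keeps many developmental genes and the noncoding transcripts beside them silent.

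The sequences below are those on which the results turn. For 5033428I22Rik the first pair of exons of transcript 5033428I22Rik-201 of GENCODE release M21 is shown, at chr8:57332118-57332185 and chr8:57332443-57332633 (mm10, plus strand). Capitals mark the 54 bases that also lie in an exon of Gm45357, the lincRNA gene on the opposite strand, which that release calls Gm34030.
5033428I22Rik exon 1: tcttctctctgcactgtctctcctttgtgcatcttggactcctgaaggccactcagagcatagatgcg
5033428I22Rik exon 2: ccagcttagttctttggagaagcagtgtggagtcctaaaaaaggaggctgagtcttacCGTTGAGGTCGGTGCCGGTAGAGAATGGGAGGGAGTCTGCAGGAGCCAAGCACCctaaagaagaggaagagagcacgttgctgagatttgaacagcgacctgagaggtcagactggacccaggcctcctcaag
For Gm26894 the first 200 bases of its second exon, at chr5:28480288-28480487 on the plus strand, are shown because this exon lies outside Shh, whereas its first exon overlaps the first Shh exon.
Gm26894 exon 2: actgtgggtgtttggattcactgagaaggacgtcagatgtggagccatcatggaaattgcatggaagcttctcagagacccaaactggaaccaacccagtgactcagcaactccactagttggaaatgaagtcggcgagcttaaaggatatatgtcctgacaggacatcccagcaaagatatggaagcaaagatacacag
Promoter windows of 250 bases before to 50 bases after the start site were taken from RefSeq (GRCm38.p6) and hold CpG dinucleotides in capitals. The window of Gm43194 is shown because this member fell.
Gm43194, chr3:134199826-134200125, plus strand: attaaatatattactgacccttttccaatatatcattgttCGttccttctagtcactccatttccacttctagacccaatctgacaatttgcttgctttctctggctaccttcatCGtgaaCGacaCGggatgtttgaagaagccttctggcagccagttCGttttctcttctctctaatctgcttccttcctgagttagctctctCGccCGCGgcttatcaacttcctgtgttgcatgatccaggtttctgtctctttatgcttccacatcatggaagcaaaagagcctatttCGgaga
It holds 9 CpGs. RefSeq gave 61 windows for 56 members. They held a median of 14 CpGs, against 7 in all 32851 mouse windows, and a median GC content of 56.0% against 52.7%. The letters GGGCGG, searched on both strands, were present in 49.2% of member windows and 35.7% of all windows, CCAAT in 49.2% and 37.4%, and TATAAA in 8.2% and 13.6%. The cyclic AMP response letters TGACGTCA, which contain none of the other motifs, were present in 4.9% and 1.8%. These matches describe letters in the windows and were not tested. Some windows lie far from the GENCODE start of their member, such as AY036118 at 50350 bases and D230017M19Rik at 7528. Among the members, 21 start within 1 kb of a coding start on the opposite strand, so a window there can hold part of that gene's promoter.

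Ezh2 itself served as the check of the labels. Its values were 55.0, 38.3, 39.6 and 39.0 in controls 1 to 4 and 35.2, 30.1, 23.2 and 36.0 in mutants 1 to 4. Every mutant library was below every control library, but the decrease of 0.46 on the log2 scale did not pass the test (SE 0.16, limma adjusted p = 0.235). With ameloblast transcripts as a covariate it did, with a log2 fold change of -0.64 (adjusted p = 0.0274), and in the other alternatives its adjusted p ranged from 0.135 with array weights, where the log2 fold change was -0.19, to 0.658 without the 3 libraries richest in ameloblast transcripts. The row counts the whole gene and does not separate the floxed part. Estimated depth was 48.3 to 68.8 M reads. Marker genes of dental mesenchyme were abundant in all 8 libraries (summed value 6917 to 10782). Libraries differed in other tissues. The summed value of 5 ameloblast genes was 15720 in control 3, 28535 in control 4 and 11435 in mutant 3, against 697.2 to 2374 in the other 5. The 3 bone genes summed to 277.0 to 365.7 in controls and 501.3 to 689.8 in mutants, and the 3 endothelial genes to 264.0 to 293.6 and 225.2 to 248.6. Xist and the Y-linked Ddx3y were both abundant in controls 1, 3 and 4 and mutant 4, Xist was under 1 in control 2 and mutant 1, and Ddx3y was under 1 in mutants 2 and 3. In bulk tissue, fewer cells of a type and less RNA per cell cannot be told apart.

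The lincRNA genes were mostly low. The mean over 8 libraries was under 10 for 73 members, from 10 to 100 for 32 and at least 100 for 5, with a median of 6.40. Protein-coding genes chosen by the same level and chromosome rule had a median of 30.5 (11752 genes). The spread within groups was wider than for coding genes, with a median SD of 0.20 on the log2 scale against 0.15. Other noncoding types chosen by the same rule had similar values, with a median of 5.21 and a median SD of 0.23 for antisense genes and of 7.07 and 0.19 for processed transcripts. All 8 libraries were at 3 or more for 79 members. For 72 members the highest library was less than 2 times the lowest, and for 6 it was more than 5 times the lowest.

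**Figure D1:**
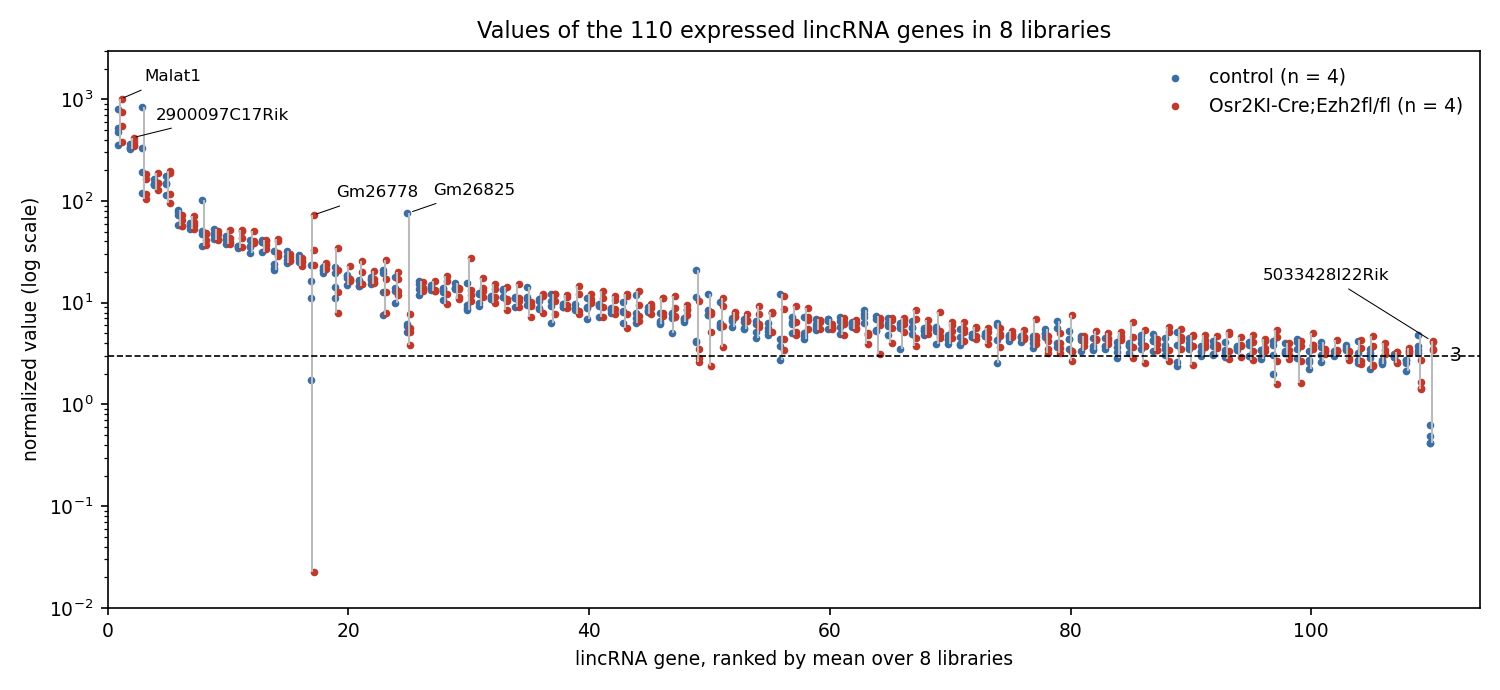
Normalized value (log scale) of each of the 110 lincRNA genes in each of the 8 libraries, ranked by mean; grey lines join the lowest and highest library and the dashed line marks the selection level of 3. Most genes lie under 10, and Gm26778 and Gm26825 have single libraries far from the rest.

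A few abundant members held much of the signal, as Malat1, 2900097C17Rik, AY036118 and 1700020I14Rik made up 51.1% of the summed member values. Malat1, a component of nuclear speckles, had the highest mean and was 809.7, 516.6, 473.0 and 357.9 in controls 1 to 4 and 381.4, 745.3, 999.7 and 546.4 in mutants 1 to 4. The groups overlapped widely, and mutant 3 was the highest library and control 4 the lowest (log2 fold change 0.28, SE 0.31, adjusted p = 0.826), and without the 3 libraries rich in ameloblast transcripts the sign turned to -0.27. Neat1, the scaffold of paraspeckles, is transcribed beside Malat1 on chromosome 19 and did not share its pattern. It was 72.9, 77.2, 81.6 and 58.4 in controls and 65.4, 56.3, 72.1 and 56.9 in mutants, with the groups overlapping (log2 fold change -0.20, SE 0.12, adjusted p = 0.546). 2900097C17Rik, the mouse Norad gene, whose RNA binds Pumilio proteins, was the steadiest of the abundant members. It ranged only from 325.7 to 417.0 over all libraries (log2 fold change 0.14, SE 0.08, adjusted p = 0.527).

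Per kilobase of exon, the order changed. AY036118 was first with a mean of 280.1 per kilobase, followed by Malat1 with 86.5, Gm42418 with 81.0 and 2900097C17Rik with 72.8. Neat1, with 20771 exon bases the longest member, fell to rank 45 with 3.25. Malat1, Gm42418 and 2900097C17Rik, which follow each other in this order, did not differ beyond the spread of Malat1 between libraries. AY036118, Gm42418 and Gm26917 lie within chr17:39843013-39848788, where GENCODE also places the ribosomal RNA gene CT010467.1, which shares 923 exon bases with AY036118 and 1822 with Gm42418. Reads of these 3 members and of ribosomal RNA could be split or exchanged by the counting, so their values are uncertain. AY036118 was 119.3, 194.5, 848.5 and 334.7 in controls and 186.0, 104.9, 116.5 and 163.8 in mutants, and control 3 was far above the other libraries. Its log2 fold change of -1.03 (SE 0.51, adjusted p = 0.449) moved between -1.45 and -0.51 when single libraries were left out and was -0.05 without the 3 libraries rich in ameloblast transcripts. Gm26917 was also highest in control 3, at 103.1 against 35.9 to 50.7 in the other libraries, while Gm42418 ranged from 95.1 to 198.7 and was highest in mutant 1.

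Few lincRNA genes differed between the groups. Among the members, 1 was higher and 2 were lower in Osr2KI-Cre;Ezh2fl/fl at a limma adjusted p under 0.05 over all 14854 genes tested. These are 0.909% and 1.82% of the members, beside 1.56% and 0.512% of all genes tested. The selection touches these counts. 5033428I22Rik, Gm11515 and Gm15706 reached 3 in the mutant libraries alone and Gm43194 in the control libraries alone, so these 4 had to differ to be members, and of the 3 called members only Gm26894 is not among them. At an unadjusted p under 0.05, 14 members were higher and 4 lower (12.7% and 3.64%), beside 8.27% and 4.87% of all genes. The groups did not overlap for 7 members that were higher and 3 that were lower (6.36% and 2.73%), beside 5.76% and 2.77% of all genes. Without the 4 members that reached the level in 1 group alone, 4 of 106 were higher and 2 lower without overlap (3.77% and 1.89%), and 11 were higher and 3 lower at an unadjusted p under 0.05 (10.4% and 2.83%). The median log2 fold change of the members was 0.08, and 76 of 110 were above 0 (69.1%), beside a median of 0.01 and 54.1% over all genes tested and of 0.01 and 51.9% over the coding genes of the same level rule. Processed transcripts, another noncoding type, had a median of 0.13 (88 genes), and antisense genes of 0.08 (59 genes). Mutant 3 was the highest of the 8 libraries for 38 members (34.5%, beside 20% of all genes tested) and mutant 1 for 23 (20.9%, beside 21.6%), and the members' median was 0.05 without mutant 3 and 0.00 without the 3 libraries rich in ameloblast transcripts, an alternative added after the data were seen.

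**Figure D2:**
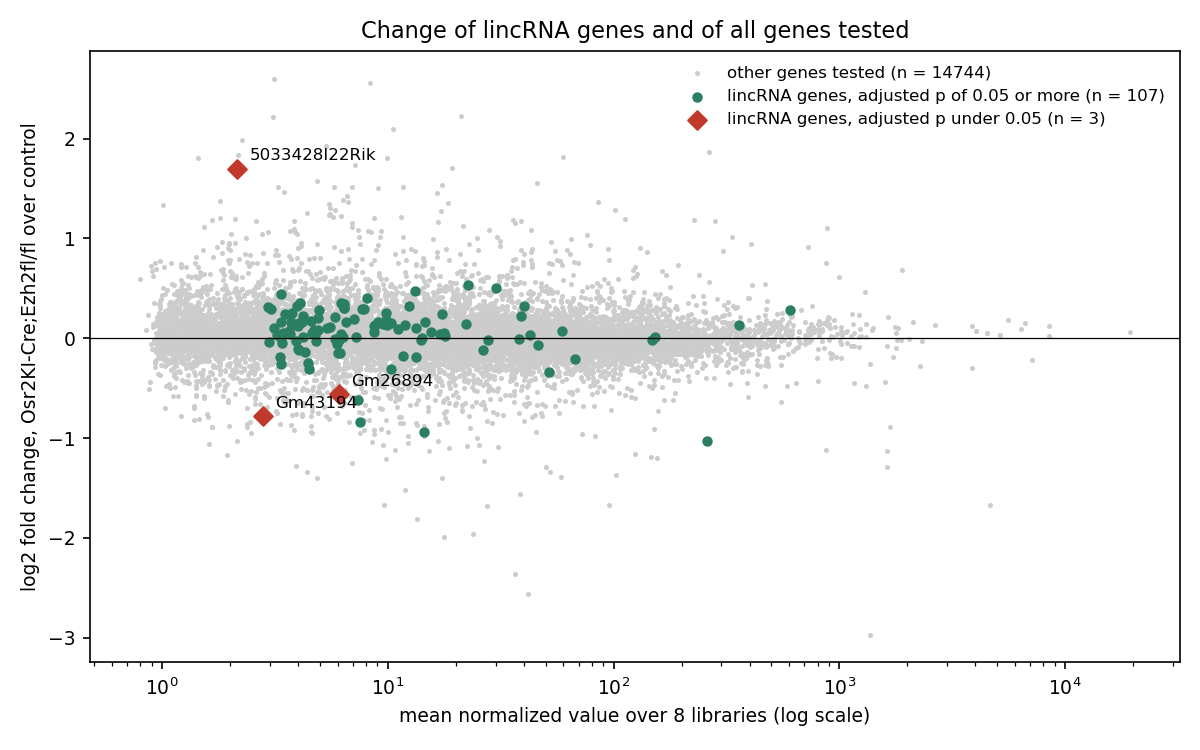
Log2 fold change (Osr2KI-Cre;Ezh2fl/fl over control) against the mean value over 8 libraries (log scale) for the 110 lincRNA genes (green, and red diamonds where the adjusted p is under 0.05) and the 14744 other genes tested (grey). 5033428I22Rik stands at 1.70, Gm43194 at -0.78 and Gm26894 at -0.56, and AY036118, with wide spread between libraries, is at -1.03, or at -0.05 without the 3 libraries rich in ameloblast transcripts.

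5033428I22Rik, which starts 7485 bases beyond the end of Hand2, showed the strongest difference. It was 0.486, 0.63, 0.413 and 0.413 in controls 1 to 4, and 3.52, 3.43, 4.13 and 4.22 in mutants 1 to 4. All mutant libraries lay far above all control libraries, at 7.88 times the control mean (log2 fold change 1.70 on log2(value + 1), SE 0.10, adjusted p = 0.000104). It passed both the level rule and the filter of the test through the mutant libraries alone, which fixes that the groups do not overlap, so these values are a description. When single libraries were left out the log2 fold change was 1.66 to 1.74. Hand2, which encodes a transcription factor of limb, heart and jaw development, was 0.103 to 0.214 in controls and 4.81 to 7.25 in mutants (log2 fold change 2.60, SE 0.12, adjusted p = 2.91e-05). Gm45357, on the opposite strand and sharing 985 exon bases with 5033428I22Rik, was 0.0306 to 0.134 and 2.00 to 3.61 (adjusted p = 0.000408). All 3 genes of this stretch of chromosome 8 were thus under 1 in every control library, and Hand2 and Gm45357 also passed the filter of the test through the mutant libraries alone, so their values are a description as well. The strand handling of the counting is not given in the sources used here, so reads of the overlapping pair cannot be told apart. By its mean over 8 libraries, 5033428I22Rik ranked last of the 110 members per kilobase of exon.

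Gm43194, a lincRNA gene of 3 exon blocks at chr3:134199948-134213238 that lies 23246 bases before Cxxc4, was lower in the mutants. It was 3.75, 3.46, 4.76 and 3.20 in controls and 2.73, 1.43, 1.65 and 1.45 in mutants. The groups did not overlap, and mutant 1 was the nearest to the controls (log2 fold change -0.78, SE 0.16, adjusted p = 0.0423). That they did not overlap is fixed by the level rule, which this gene met in the controls alone, so these values are a description too. Cxxc4, which encodes a CXXC zinc finger protein that inhibits Wnt signalling, was 19.5 to 21.7 in controls and 15.8 to 17.4 in mutants, also without overlap (log2 fold change -0.29, SE 0.07, adjusted p = 0.0911). The call for Gm43194 was close to the threshold and ended when any single library other than mutant 1 was left out, the adjusted p then reaching up to 0.152.

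Gm26894 was the other member that fell. It was 6.38, 7.70, 8.39 and 7.23 in controls and 4.96, 3.95, 4.86 and 5.09 in mutants, with no overlap (log2 fold change -0.56, SE 0.11, adjusted p = 0.0356, exact two-sided permutation p = 0.0286, the smallest that 4 against 4 allow). Its first exon overlaps the first exon of Shh on the opposite strand, with 361 of its 1134 exon bases shared. Shh, the Hedgehog ligand made by dental epithelium, was 160.0, 184.5, 240.4 and 227.5 in controls and 161.3, 91.3, 151.3 and 127.7 in mutants. The Shh groups overlapped through mutant 1 (log2 fold change -0.62, SE 0.19, adjusted p = 0.157). Since strand handling is not given, reads from Shh cannot be told apart from those of Gm26894 in the shared bases. The 4 general epithelial markers (Krt14, Krt5, Cdh1 and Epcam) summed to 1494 to 3474 in controls and 1468 to 2040 in mutants, with 0 of 4 higher in the mutants, and their part in the result was not tested. With ameloblast transcripts as a covariate the log2 fold change of Gm26894 was -0.50 (adjusted p = 0.0729). Leaving out any single library other than control 1 or mutant 1 raised its adjusted p to 0.0613 to 0.147.

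**Figure D3:**
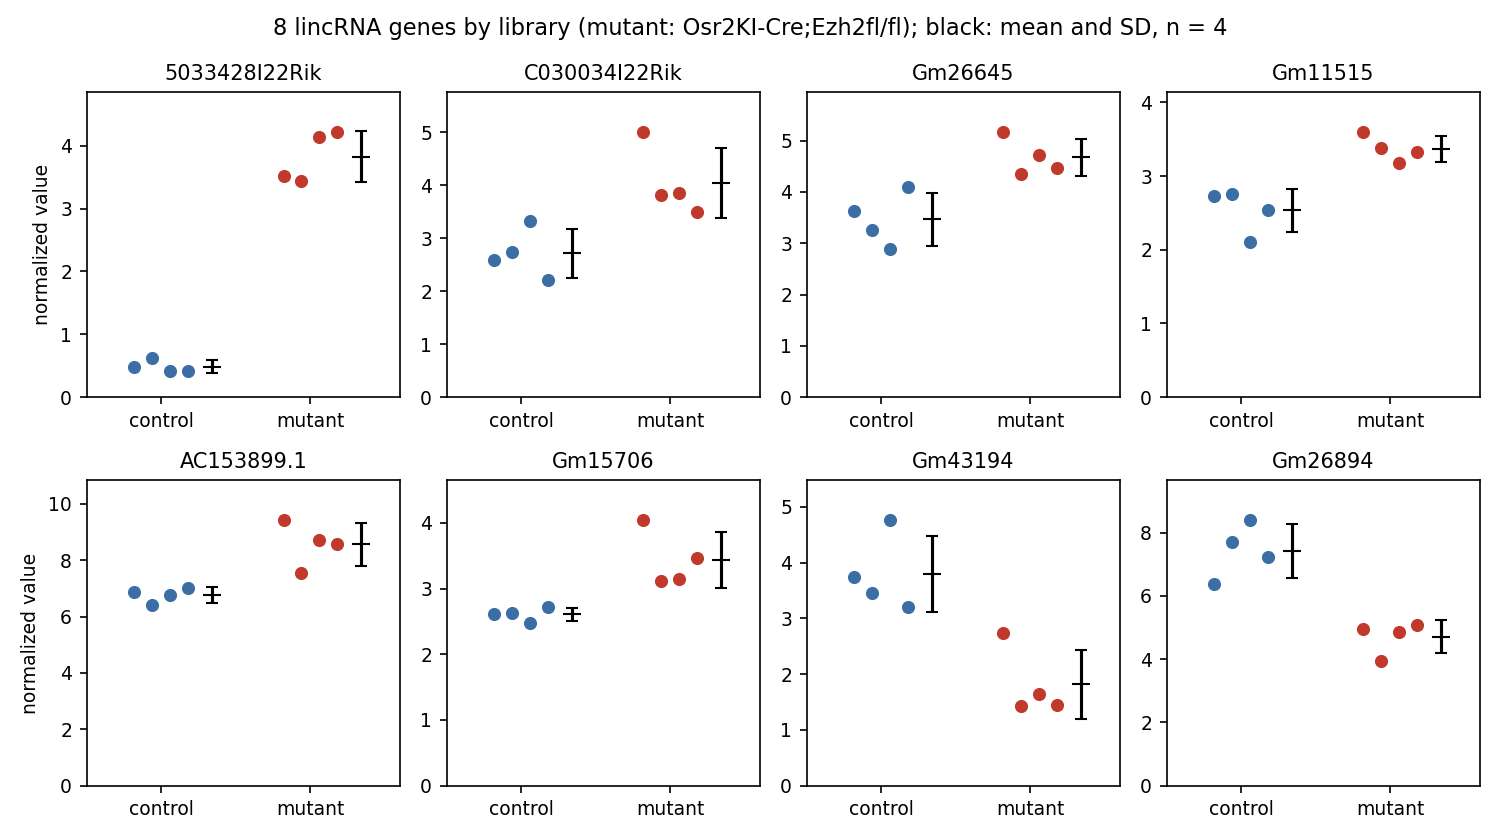
Normalized values of 8 lincRNA genes in single libraries, 4 per group, with mean and SD in black. The genes were chosen because their groups do not overlap, which for 5033428I22Rik, Gm43194, Gm11515 and Gm15706 the level rule fixes, and 5033428I22Rik lies at 0.413 to 0.63 against 3.43 to 4.22.

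The other members with groups that did not overlap had smaller differences that missed the adjusted threshold. C030034I22Rik, on chromosome 17, was 2.21 to 3.32 in controls and 3.50 to 5.01 in mutants (log2 fold change 0.44, SE 0.13, adjusted p = 0.137). Akain1, its nearest coding gene, was too low to be tested, at 0.295, 0.979, 6.81 and 16 in controls and 0.474, 0.0910, 6.58 and 0.103 in mutants, and was high in the 3 libraries rich in ameloblast transcripts. Gm26645 starts 1940 bases from Gli3 and runs away from it. Gm26645 was 2.89 to 4.10 and 4.34 to 5.17 (log2 fold change 0.35, SE 0.11, adjusted p = 0.169), and Gli3, a transcription factor of the Hedgehog pathway, was 99.2 to 105.6 and 109.3 to 145.8 (log2 fold change 0.23, SE 0.09, adjusted p = 0.328). For both genes of this pair the mutant libraries lay above all controls.

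Gm11515 was 2.11 to 2.75 in controls and 3.18 to 3.60 in mutants (log2 fold change 0.31, SE 0.09, adjusted p = 0.162), and its nearest coding gene Tac4 was not tested, at 0.0347 to 0.174 and 0.0607 to 0.339. AC153899.1, near Hint3, was 6.40 to 7.03 and 7.54 to 9.42 (log2 fold change 0.30, SE 0.09, adjusted p = 0.158), whereas Hint3 overlapped between groups at 5.47 to 6.21 and 5.38 to 6.71. Gm15706 was 2.48 to 2.72 and 3.11 to 4.04 (log2 fold change 0.29, SE 0.10, adjusted p = 0.202). Gm11515 and Gm15706 met the level rule in the mutants alone, which fixes that their groups do not overlap, so their values are a description. Fam120aos and, in the lower direction, 4930556M19Rik also did not overlap, with log2 fold changes of 0.19 and -0.18 and adjusted p of 0.427 and 0.465.

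Host genes of small RNAs are the members whose products are best known. By the GENCODE annotation, 8 members contain snoRNAs or the related scaRNAs, which guide chemical modification of ribosomal and spliceosomal RNA. Of these 8, 7 had a log2 fold change above 0, with a median of 0.17 and a range of -0.07 to 0.41, and none passed the adjusted test. Snhg6 was 14.5 to 16.6 in controls and 25.6, 15.2, 19.9 and 15.4 in mutants 1 to 4. Snhg12 was 7.28 to 9.74 in controls and 13.1, 7.23, 11.0 and 9.14 in mutants. Snhg20 was 6.21 to 7.99 in controls and 11.2, 7.98, 11.2 and 7.43 in mutants (log2 fold change 0.41, SE 0.15, adjusted p = 0.252). The same pair of libraries, mutants 1 and 3, was thus high in each of these hosts, and they were the top 2 of the 8 libraries in 4 of the 8 hosts and in 25 of all 110 members. Snhg18, the most abundant host, went without that pattern at 41.1 to 53.1 over all libraries. Of the list of 20 snoRNA host genes looked for by name, 5 are members, and most of the others are typed as processed transcripts.

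In GENCODE, 8 members contain microRNAs, which are cut from the long transcript and are not measured by its level. Of these, 4 had a log2 fold change above 0, with a median of 0.07 and a range of -0.26 to 0.41, and both Snhg20 and 2900076A07Rik, which holds Mir1839, are also among the hosts of snoRNAs or scaRNAs. 6720427I07Rik covers a let-7 cluster on chromosome 13 (minus strand), whose 3 mature 5′ products share 1 seed. Seeds, bases 2 to 8, are in capitals in these RefSeq sequences.
let-7a-5p: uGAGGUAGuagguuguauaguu
let-7d-5p: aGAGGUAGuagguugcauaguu
let-7f-5p: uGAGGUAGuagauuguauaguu
6720427I07Rik was 6.31, 5.22, 5.66 and 4.77 in controls and 7.96, 5.17, 8.01 and 8.16 in mutants (log2 fold change 0.35, SE 0.14, adjusted p = 0.34). Mutant 2 was among the controls and the other mutants were above them. The table's interval for this gene, chr13:48535523-48537823, ends before the let-7f-1 and let-7a-1 hairpins, so whether the counted model reaches them is uncertain.
Mir17hg, the host of the miR-17-92 cluster on chromosome 14, holds microRNAs of several seed families, of which the first pair below share 1 seed and the second pair another.
miR-17-5p: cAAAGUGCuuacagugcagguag
miR-20a-5p: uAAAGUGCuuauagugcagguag
miR-19a-3p: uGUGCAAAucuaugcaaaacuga
miR-19b-3p: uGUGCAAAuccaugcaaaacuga
miR-18a-5p: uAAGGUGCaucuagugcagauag
miR-92a-3p: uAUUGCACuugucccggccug
Mir17hg was 5.65, 6.09, 6.34 and 3.47 in controls and 6.79, 5.11, 6.22 and 7.14 in mutants, with the groups overlapping (log2 fold change 0.21, SE 0.17, adjusted p = 0.708). 4631405K08Rik contains Mir205, a microRNA of epithelia, shown because the dissection could hold epithelium.
miR-205-5p: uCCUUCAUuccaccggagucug
This host was 2.85, 3.49, 4.14 and 4.39 in controls and 4.17, 1.61, 3.72 and 2.65 in mutants. The log2 fold change was -0.26 (SE 0.21, adjusted p = 0.719), and -0.07 with ameloblast transcripts as a covariate. A430106G13Rik, the host of Mir181b-1, ranged from 3.54 to 4.85 in controls and from 2.58 to 5.39 in mutants.

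Some members varied more between libraries of 1 group than between the groups. Gm26778, whose 3805 exon bases all lie within exons of Kctd12 on the opposite strand, had the widest spread. It was 16.4, 23.4, 11.1 and 1.72 in controls and 0.0227, 72.2, 23.3 and 33.1 in mutants, so that mutant 1 was under 1 estimated read while mutant 2 was the highest of all (log2 fold change 0.54, SE 1.22, adjusted p = 0.927). Kctd12, which encodes an auxiliary subunit of GABA-B receptors, was 402.3 to 546.1 in controls and 852.2 to 1088 in mutants, with no such library (log2 fold change 0.91, SE 0.12, adjusted p = 0.00645). Its adjusted p was 0.0615 with the replicate block and 0.137 without the 3 libraries rich in ameloblast transcripts, where the log2 fold change was 0.74. Gm26825 was 76.4 in control 1 and 3.85 to 7.83 in the other 7 libraries. It shares 1860 exon bases with the processed pseudogene Gm15459 on the opposite strand, so that its reads are uncertain.

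AI504432 followed the ameloblast transcripts. It was 11.4 in control 3, 21.2 in control 4 and 10.3 in mutant 3, the 3 libraries rich in those transcripts, and 2.64 to 4.20 in the other 5. Its log2 fold change between groups was -0.84 (SE 0.52, adjusted p = 0.578), and -0.11 with the covariate. 5930430L01Rik had the same order, at 4.99 to 6.55 in those 3 libraries and 3.22 to 4.02 in the others. Gm22, which GENCODE M21 names Zfp469 and types as lincRNA, and 4933404O12Rik had the opposite order. Together 1.82% of the members were above and 1.82% below in all 3 libraries, beside 4.98% and 3.70% of all genes tested, a difference that was not tested. Without those 3 libraries the log2 fold change of AI504432 was -0.38 (adjusted p = 0.622).

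**Figure D4:**
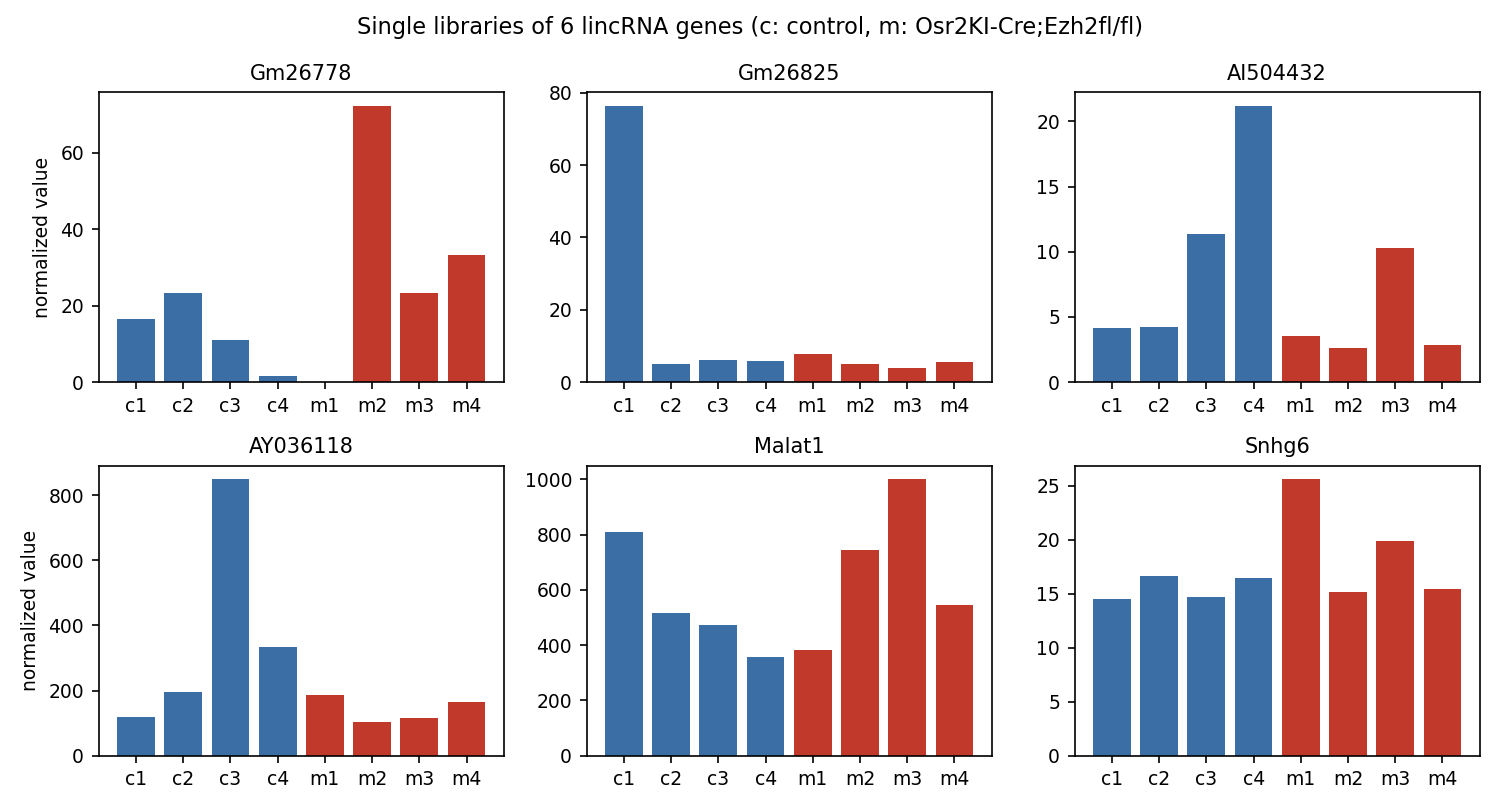
Normalized value of 6 lincRNA genes in each library (bars from 0, c for control and m for Osr2KI-Cre;Ezh2fl/fl). Gm26825 is high in control 1 alone at 76.4, AY036118 in control 3 at 848.5, AI504432 in c3, c4 and m3, and Snhg6 in m1 and m3.

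Many lincRNA genes lie close to coding genes, and the values of both were set side by side. By GENCODE, 43 members share exon bases with a gene on the opposite strand, 8 with a gene on the same strand and 62 with none. For 92 members the nearest protein-coding gene was tested. The log2 fold changes had the same sign in 49 of the 92 pairs (53.3%), with a Pearson r of 0.66 across pairs, and 0.40 without 5033428I22Rik and Hand2, so that 1 pair carried much of the relation. All pairs share the same 8 libraries, and overlapping pairs may share reads. In the 18 pairs with shared exon bases r was 0.57, in the 17 pairs that start within 1 kb of each other on opposite strands 0.27, and in the 57 other pairs 0.71, which was 0.36 without 5033428I22Rik and Hand2 (56 pairs).

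In 7 pairs both genes had an unadjusted p under 0.05, and the log2 fold changes of each pair had the same sign, an agreement that was not tested. In the pairs with Hand2 and Cxxc4 the lincRNA gene had met the level rule in 1 group alone. Of the 5 other pairs, Gm26894 with Shh and Gm26883 with Tshz2 share exon bases. Besides the pairs with Hand2, Cxxc4, Shh and Gli3, these are Gm26883 with Tshz2, Gm22 (Zfp469 in GENCODE M21) with Zfpm1 and 2810455O05Rik with Ccsap. 2810455O05Rik lies 46 bases beyond the end of Ccsap on the same strand, so reads running on from Ccsap may be counted in it. Gm22 and 2810455O05Rik also lie within a read-through gene model on chromosome 8 that was not used as a neighbour, without shared exon bases. Gm26883, which shares 5076 exon bases with the zinc finger gene Tshz2 on the opposite strand, was 34.7 to 36.1 in controls and 35.2, 51.3, 50.2 and 43.4 in mutants (log2 fold change 0.32, SE 0.11, adjusted p = 0.238). Tshz2 was 29.6 to 40.2 in controls and 34.4, 56.5, 54.5 and 53.5 in mutants, so mutant 1 was with the controls for both. A further 2 pairs were as follows. AC122860.2, near Gdf7, was 20.9 to 32.0 and 29.1 to 42.4 (log2 fold change 0.50, SE 0.16, adjusted p = 0.185), and Gdf7, a bone morphogenetic protein family ligand, was 3.62 to 8.15 and 3.43 to 10.1 (log2 fold change 0.28, SE 0.31). The groups overlapped for both genes, and with the ameloblast covariate AC122860.2 was at 0.31 (adjusted p = 0.213) and Gdf7 at 0.01 (adjusted p = 0.991). 5930412G12Rik starts 151 bases from the Wnt receptor gene Fzd10 on the opposite strand and was 9.45 to 14.2 and 7.28 to 10.2 (log2 fold change -0.31, SE 0.14, adjusted p = 0.379), and Fzd10 had a log2 fold change of -0.10 (SE 0.23). With the ameloblast covariate 5930412G12Rik was at -0.47 (adjusted p = 0.0392) and Fzd10 at -0.42 (adjusted p = 0.0887).

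**Figure D5:**
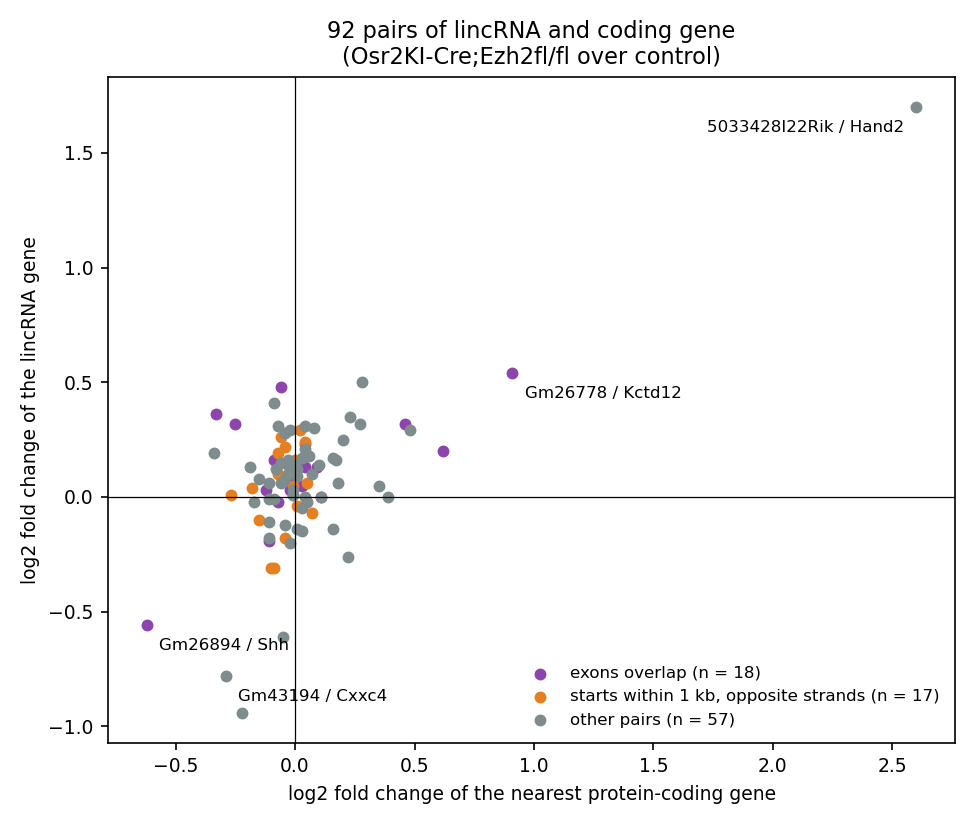
Log2 fold change (Osr2KI-Cre;Ezh2fl/fl over control) of the lincRNA gene against that of its nearest protein-coding gene for 92 pairs, coloured by how the pair is arranged. The pair of 5033428I22Rik and Hand2 stands apart at 1.70 and 2.60, and most other pairs lie near 0.

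At the edge of the level rule, the fourth-highest library decides membership. Just inside were Bvht, a lincRNA known from heart development, with values of 2.56 to 3.30, Gm15706 and Gm11515. Just outside were 1700086O06Rik with 2.28 to 3.58, Gm20735 with 2.19 to 4.37 and 4930480K23Rik with 1.44 to 3.65. Of 29 names of regulatory lincRNAs looked for, such as Miat, Pvt1 and Trp53cor1, and with Norad and 2900097C17Rik as names of the same gene, 15 are in the table and 4 are members, namely Malat1, Neat1, 2900097C17Rik and Bvht. Members lie on all 19 autosomes, with most on chromosome 5 (16). They have a median of 2860 exon bases in 3 exon blocks, and 28 have a single block. GENCODE M21 types 101 members as lincRNA and 9 otherwise, of which 4 are processed transcripts, 3 antisense genes and 1 a bidirectional promoter transcript, and 6330403K07Rik is typed there as protein coding.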

How the data were processed

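Molar RNA of 4 Ezh2fl/fl and 4 Osr2KI-Cre;Ezh2fl/fl samples was analysed. The groups and replicate numbers come from the sample titles, and no library was left out. The methods speak of 3 pairs of samples beside 4 samples per group, without saying which libraries form a pair. The authors trimmed single-end reads of 75 cycles and aligned them to mm10. The methods name TopHat and RPKM, whereas the submitters' processing notes list CASAVA 1.8.2, STAR 2.5.3a and Partek. Values as deposited are a signal per gene, scaled by the authors, since they are neither whole reads nor divided by gene length, and their 75th percentiles are 38.45 or 38.46 in every library. Annotation, strand handling and gene filter are not given in the sources used here. Values are never 0, and the smallest one of a library divides 61.2% of values under 20 such steps into whole numbers (tolerance 0.01), so the value in steps, minus 1, was taken as estimated reads. Estimated depth, 48.3 to 68.8 M reads, limits precision by counting error only, and no count model was used.

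Differences were tested with limma 3.58.1 in R 4.3.3 (eBayes with trend), using log2(value + 1) of the 14854 genes at 1 or more in 4 or more libraries, with Benjamini-Hochberg adjustment over all of them. The pseudocount of 1 understates the change of low genes. Single genes were also tested by exact two-sided permutation over 70 arrangements. The test was run on simulated data first. Members and lists were chosen with earlier results of these data known. Named were called members, members with an unadjusted p under 0.05 and no overlap between groups, the 8 with the highest mean, listed genes, the 3 nearest to each side of the level rule, the 4 with the largest spread within groups, and the nearest coding genes, of which 1 is not reported here. Other genes, among them AC122860.2, Gm26883, 5930412G12Rik, 6720427I07Rik, 5930430L01Rik, Gm22, Fam120aos and 4930556M19Rik, were chosen after their values were seen. Gene positions, exons and neighbours are from GENCODE M21, with 98 members matched by name and 12 by position. Promoter windows and mature microRNAs are from RefSeq. A read-through model on chromosome 8 was not used as a neighbour. Alternatives covered pseudocounts, filters, scaling, moderation, array weights, a replicate block, Xist and ameloblast covariates, other level rules and leaving out libraries.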

Additional observations from a re-analysis of the deposited data

Results flagged for a closer look

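Gm26825 was 76.4 in control 1 and 5.11 to 6.24 in the other controls, a gap that takes 0.93 of the range of the group and exceeds Dixon's critical value for groups of 4. The 26 named members were examined in both groups, 52 groups in all, and 1 such case was found. Chance flags about 1 in 20 groups, a share that does not hold for Gm26825, which was named for its large spread within groups. The mutant libraries ranged from 3.85 to 7.83.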

How the results depend on the processing

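The calls of Gm43194 and Gm26894 were close to the threshold. 5033428I22Rik was called in every alternative that tested it, but it entered the list and the test through the mutant libraries alone. Tested members with an adjusted p under 0.05 numbered 1 higher and 2 lower. The lower count was 0 with no filter, with Xist as a covariate and without the libraries rich in ameloblast transcripts (an alternative chosen after seeing the data), and 1 with the ameloblast covariate. That 1 was 5930412G12Rik, while Gm43194 and Gm26894 were not called with this covariate. With a filter at 10, or members at a value of at least 10, both adjusted counts were 0, because 5033428I22Rik, Gm43194 and Gm26894 were then no longer tested or no longer members. At an unadjusted p under 0.05 the counts were 2 and 0, or 3 and 1, from fewer than 110 members. Over all genes the shares were 6.54% and 4.68% with the filter, and 8.27% and 4.87% in the main fit. With members at a value of at least 1 (239 genes), 2 were higher and 2 lower at an adjusted p under 0.05 (0.837% each, beside 1.56% and 0.512% of all genes). At an unadjusted p under 0.05, 29 were higher and 7 lower (12.1% and 2.93%, beside 8.27% and 4.87% of all genes). Array weights, which gave mutant 4 a weight of 9.66 and each other library at most 2.31, called 20 higher and 10 lower (18.2% and 9.09%, beside 14.6% and 12.6% of all genes), with 28 and 23 at an unadjusted p under 0.05 (25.5% and 20.9%, beside 22% and 18.7%) and a member median of 0.01, and the cause was not tested. Without the ameloblast-rich libraries, 5 members were higher and 5 lower at an unadjusted p under 0.05 (4.55% each, beside 4.08% and 3.00% of all genes) and the median was 0.00, from 2 controls and 3 mutants.

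When single libraries were left out, the adjusted counts were 1 to 2 higher and 0 to 2 lower, the unadjusted counts 8 to 16 and 2 to 7, and the median 0.05 to 0.12. Over all genes the adjusted shares were then 0.727% to 2.24% and 0.141% to 0.653%, and the unadjusted ones 5.45% to 9.40% and 3.14% to 6.40%. Same-numbered libraries did not deviate together (r over all genes -0.34, -0.08, 0.22 and -0.43), so the numbers were not taken to pair the samples. With the replicate block 1 member was higher and 0 lower at an adjusted p under 0.05 (beside 0.431% and 0.0606% of all genes), and 13 were higher and 2 lower at an unadjusted p under 0.05 (11.8% and 1.82%, beside 6.18% and 3.68%). In that fit the adjusted p was 0.0107 for 5033428I22Rik, 0.102 for Gm43194 and 0.173 for Gm26894.

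Among the named genes, signs turned only for genes with no adjusted p under 0.05 in either fit. With median-of-ratios scaling, 1700020I14Rik was -0.01 and 1700086O06Rik -0.00. With quantile normalization 1700086O06Rik was -0.04, and with a pseudocount of 0.1 Gm26778 was -0.05. With array weights Snhg12 was -0.01, Epb41l4aos -0.10 and 1700086O06Rik -0.06. With Xist as covariate 1700020I14Rik was -0.01 and Gm42418 0.01. With the ameloblast covariate Gm42418 was 0.20, Snhg18 0.01, Bvht 0.01, Gm20735 0.11 and Gm26778 -0.01. Without the ameloblast-rich libraries Malat1 was -0.27, 1700020I14Rik -0.13, Gm42418 0.00, Gm26917 0.02, Gm20735 0.12 and Gm26778 -0.59. Leaving out single libraries gave -0.09 to 0.09 for 1700020I14Rik, -0.07 to 0.10 for 1700086O06Rik, -0.08 to 0.01 for Bvht, -0.16 to 0.09 for Gm20735, -0.20 to 1.85 for Gm26778 and -0.17 to 0.18 for Gm42418.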
